A study of Mus musculus with 9 samples.

Results

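Expression of 10 Krüppel-like factor genes was measured in the cerebral cortex of single mouse embryos at E12.5 (embryonic day after the plug). The genes were Klf3, Klf4, Klf6, Klf7, Klf8, Klf9, Klf10, Klf12, Klf13 and Klf15. They were matched by symbol to the Ensembl identifiers of the count table, where they make up 10 of 57010 genes. The question was whether the rise of Klf8 in Cnot3 mutant cortices was shared by its family. Klf8 itself was followed by the study because it rose in these same embryos and was poor in optimal codons, so its own change and its own codon content are descriptions and not independent evidence. The study then blocked transcription in separate E12.5 primary cultures and reported that Klf8 mRNA was stabilized in Cnot3 mutant cells. Those cultures are not part of the data used here.

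CNOT3 is a subunit of CCR4-NOT, the complex that shortens the poly(A) tails of mRNAs. The control (Ctrl) group comprised 3 embryos labelled wild type. The Cnot3 cKO group comprised 3 embryos in which Emx1-Cre removed floxed Cnot3 alleles, and the dcKO group comprised 3 embryos in which the same Cre removed floxed Cnot3 and Trp53. Emx1-Cre acts in radial glial cells (RGCs) of the dorsal telencephalon and in their progeny, so blood vessels, blood, microglia and meninges in the dissected tissue kept their alleles.

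KLF proteins are transcription factors that bind GC-rich and CACCC DNA elements through zinc fingers at the carboxy terminus. The amino termini differ and recruit different partners. KLF3, KLF8 and KLF12 bind the corepressor CtBP and mostly repress, KLF4, KLF6 and KLF7 act with acetyltransferases and mostly activate, and KLF9, KLF10 and KLF13 bind the corepressor SIN3A. KLF15 is not usually placed in these groups. Several members are known in the nervous system, among them KLF7 and KLF6 as promoters and KLF4 and KLF9 as inhibitors of axon growth.

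The CtBP-binding group was visible in the coding sequence. The following stretches are shown because they set Klf8 and its nearest relatives apart from the other members. They code for the short proline-to-serine motif that contacts CtBP (threonine in place of serine in Klf3), with the motif's codons in capitals, read 5′ to 3′ on the coding strand.
Klf8: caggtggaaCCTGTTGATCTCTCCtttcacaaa
Klf3: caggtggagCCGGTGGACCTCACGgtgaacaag
Klf12: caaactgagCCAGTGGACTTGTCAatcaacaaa

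The Klf8 stretch lies in coding exon sequence at chrX:153382674-153382706 on the plus strand of GRCm38, in exon 4 of 7. Its counterpart in Klf3 lies at chr5:64821988-64822020 on the plus strand, in exon 3 of 6. The Klf12 stretch lies at chr14:100023028-100023060 on the minus strand, in exon 4 of 8. The motif was searched as proline, any residue, aspartate, leucine, then serine or threonine, and it was found in these 3 members and in none of the other 7. Of all tested genes with a coding sequence, 2.68% code for it. The last 3 zinc fingers spanned 81 residues in every member. In this region KLF8 shared 86.4% of its residues with KLF3 and with KLF12, 76.5% with KLF4, KLF6 and KLF7, 65.4% with KLF9 and KLF15, and 64.2% with KLF10 and KLF13.

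Each Ctrl library held 21193798 to 28869816 counts, each cKO library 24835674 to 25946075 and each dcKO library 23275370 to 45073349. All 10 members passed the filter of more than 10 reads in every embryo, as did 13680 genes in all. Levels are given as CPM (counts of a gene scaled to library size with edgeR's TMM factors). Cnot3 was at 98.2 to 117.3 CPM in Ctrl and 14.6 to 17.3 in cKO. In dcKO it was at 7.33, 48.2 and 19.0 CPM, and Trp53 was at 15.1, 110 and 20.6 CPM there, beside 215 to 254 in Ctrl. The embryo labelled dcKO replicate 2 held more RNA of both targeted genes than the other dcKO embryos, though less than any control, and dcKO values of the members without it are given below. Summed levels of 7 radial glia markers lay between 2669 and 3212 CPM in every embryo, but 4 of the 7 were lower and 1 was higher in all cKO embryos than in all controls, and in dcKO 1 was lower. Of all tested genes, 28% were lower and 29.2% higher without overlap in cKO, and 11.2% lower in dcKO. Intermediate progenitor markers (4 genes) summed to 371 to 463 CPM in Ctrl, 346 to 417 in cKO and 327 to 614 in dcKO, with 2 of the 4 lower in all cKO embryos. The 4 skin markers summed to 9.68 CPM at most. Xist reads were found in 4 embryos (Ctrl replicates 2 and 3, cKO replicate 1 and dcKO replicate 2) and Y-linked reads in the other 5. Klf8 lies on the X chromosome.

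In control cortex the members were expressed at very different levels. Compared per kilobase (kb) of exon, Klf13 was highest at 11.7 ± 0.637 CPM per kb (SD, n = 3). Klf6 followed at 7.85 ± 0.381, Klf10 at 6.16 ± 0.656, Klf12 at 5.39 ± 0.249, Klf3 at 4.99 ± 0.542 and Klf7 at 2.84 ± 0.0686 CPM per kb. Klf8 stood in seventh place at 0.861 ± 0.188 CPM per kb. It was next to Klf4 at 0.844 ± 0.196, Klf9 at 0.631 ± 0.231 and Klf15 at 0.529 ± 0.391 CPM per kb. The ranges of these 4 low genes overlapped, as did those of Klf12 and Klf3, whereas each of the other neighbours in this order was separated in all 3 control embryos.

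The order differed at its top between groups. In cKO cortex Klf6 was highest at 11.7 ± 2.99 CPM per kb. Klf13, at 5.73 ± 0.902, lay at the levels of Klf12 (6.42 ± 0.804), Klf3 (5.80 ± 0.643) and Klf10 (5.63 ± 0.0888), and these 4 ranges overlapped. Klf8 stayed in seventh place at 2.59 ± 0.348 CPM per kb, now with every embryo above those of Klf4, Klf9 and Klf15 and a range that overlapped Klf7 (3.53 ± 0.860).

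**Figure D1:**
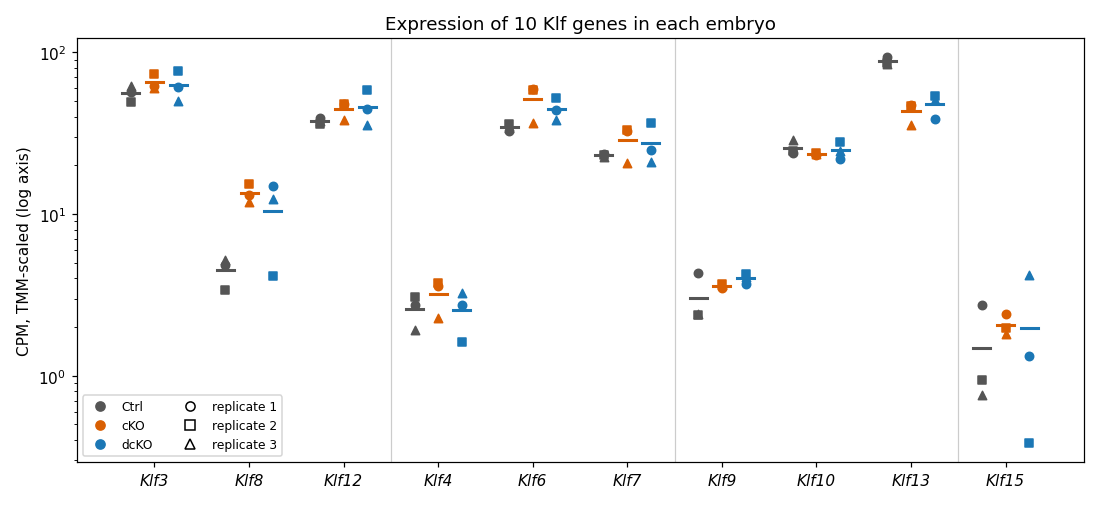
Expression of the 10 Klf genes in each of 9 embryos, as TMM-scaled CPM on a log axis. Points are embryos (grey Ctrl, orange cKO, blue dcKO, with the marker giving the replicate) and horizontal bars are group means. The 3 cKO embryos sit above all Ctrl embryos for Klf8 and Klf6 and below all of them for Klf13, and the dcKO square for Klf8 lies among the controls.

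Klf8, an X-linked repressor known from cell cycle progression and cell migration, showed the largest fold change of the 10 (chrX:153237466-153396132 on the plus strand of GRCm38). It had 68 to 145 reads in the 3 Ctrl embryos, 362, 415 and 314 in cKO, and 534, 162 and 300 in dcKO. Scaled to CPM, the Ctrl embryos held 4.85, 3.37 and 5.23, the cKO embryos 13.2, 15.4 and 11.8, and the dcKO embryos 14.8, 4.14 and 12.4. Every cKO embryo was above every control, and so were dcKO replicates 1 and 3, whereas dcKO replicate 2 lay between the controls.

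The edgeR log2 fold change of Klf8 was 1.59 ± 0.44 (SE) in cKO, a 3.00-fold level with a 95% interval of 0.61 to 2.56 on the log2 scale. Its adjusted p from edgeR's quasi-likelihood test was 0.0641, above the threshold of 0.05, and DESeq2 gave 1.57 with an adjusted p of 0.00598. In dcKO the edgeR log2 fold change was 1.22 ± 0.43 (adjusted p = 0.104), and DESeq2 gave 1.19 with an adjusted p of 0.0429. Without dcKO replicate 2, edgeR gave 1.58 (adjusted p = 0.00641) in cKO and 1.60 (adjusted p = 0.00682) in dcKO, both past the threshold. In this fit the remaining pair of dcKO embryos was assumed to vary like the other groups. With a correction for GC content, edgeR on all 9 embryos gave 1.32 in cKO and 0.88 in dcKO. This correction takes out every change that follows the GC content of transcripts, whatever its source. DESeq2's call in cKO was lost without Ctrl replicate 2 (1.40, adjusted p = 0.0716) or cKO replicate 2 (1.47, adjusted p = 0.0636). Its call in dcKO was lost when any embryo other than dcKO replicates 2 and 3 was left out, with adjusted p-values from 0.0711 to 0.288. With 3 embryos against 3, an exact permutation test cannot give a p under 0.1, which Klf8 reached in cKO, and it gave 0.3 in dcKO (two-sided).

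Klf3 and Klf12, the other CtBP-binding members, passed no test. Klf3, a broadly expressed repressor known from erythroid and fat cells, had 56.9, 49.6 and 61.7 CPM in Ctrl, 62.4, 73.5 and 59.9 in cKO, and 61.0, 77.1 and 49.8 in dcKO. Its groups overlapped in both comparisons, with log2 fold changes of 0.22 ± 0.20 in cKO (95% interval −0.22 to 0.66) and 0.16 ± 0.20 in dcKO. The GC correction reversed both directions, and leaving out dcKO replicate 2 reversed that in dcKO. Klf12, a repressor first described at the AP-2α gene, had 39.4, 36.0 and 37.5 CPM in Ctrl, 48.3, 47.9 and 38.3 in cKO, and 44.6, 58.5 and 35.6 in dcKO. One cKO embryo fell within the control range, and the log2 fold changes were 0.25 ± 0.21 in cKO (95% interval −0.22 to 0.72) and 0.30 ± 0.21 in dcKO. The GC correction reversed the direction of Klf12 in dcKO. In both genes the interval in cKO ended below a 2-fold rise.

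Among the acetyltransferase-binding members, Klf6 came closest to Klf8. Klf6, an early-response gene known from injury and axon growth (chr13:5861482-5870394 on the plus strand), had 32.9, 36.2 and 34.3 CPM in Ctrl, 59.8, 58.5 and 36.4 in cKO, and 43.7, 52.2 and 38.4 in dcKO. All 6 mutant embryos lay above the controls, cKO replicate 3 by the narrowest margin. Its log2 fold change in cKO was 0.58 ± 0.22, with an unadjusted p of 0.0263 and an adjusted p of 0.132 by edgeR. DESeq2 gave 0.57 with an adjusted p of 0.102. The adjusted p in cKO fell under 0.05 with limma voom (0.58, adjusted p = 0.00575), when only the 6 embryos compared were fitted by edgeR (0.58, adjusted p = 0.0181) and without dcKO replicate 3 (0.58, adjusted p = 0.0433). It also did so by DESeq2 without cKO replicate 3 (0.77, adjusted p = 0.0274) or dcKO replicate 3 (0.56, adjusted p = 0.0249), and all these values were under the 2-fold change required for a call. In dcKO it was 0.38 ± 0.22 (adjusted p = 0.280 by edgeR). With a correction for GC content these became 0.32 in cKO and −0.06 in dcKO, so the direction in dcKO depended on it.

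Klf4 and Klf7 did not pass any test. Klf4, known from stem cell pluripotency and epithelia, was low in this tissue, with 2.73, 3.07 and 1.91 CPM in Ctrl, 3.58, 3.76 and 2.26 in cKO, and 2.75, 1.61 and 3.27 in dcKO. The groups overlapped, the log2 fold changes were 0.32 ± 0.39 and −0.02 ± 0.39, and the 95% interval in cKO ran from −0.55 to 1.18, which included a 2-fold rise. Klf7, which is needed for the growth of sensory and olfactory axons, had 23.5, 23.3 and 22.4 CPM in Ctrl, 32.4, 33.1 and 20.7 in cKO, and 24.9, 36.5 and 20.99 in dcKO. In cKO, 2 embryos were above and 1 below the narrow control range, and the log2 fold changes were 0.32 ± 0.27 and 0.25 ± 0.27. The direction of Klf7 in dcKO was reversed by the GC correction and by leaving out dcKO replicate 2.

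Klf13, a member of the SIN3A-binding group known from T cells and heart, differed from the controls in the direction opposite to Klf8. It lies at chr7:63886351-63938915 on the minus strand of GRCm38. Its levels were 93.4, 85.5 and 84.8 CPM in Ctrl, 47.5, 46.7 and 35.4 in cKO, and 39.0, 53.8 and 50.8 in dcKO. All 6 mutant embryos lay well below all 3 controls, dcKO replicate 2 included. Its log2 fold change was −1.03 ± 0.19 in cKO (adjusted p = 0.0509 by edgeR) and −0.88 ± 0.19 in dcKO (adjusted p = 0.0502), just short of the threshold. DESeq2 gave −1.04 with an adjusted p of 1.47e-04 in cKO and −0.91 with an adjusted p of 9.39e-04 in dcKO, where the fold was under the required 2. DESeq2's call in cKO was lost without Ctrl replicate 1 or cKO replicate 3 (−0.91), where the fold fell under 2. With a correction for GC content the values were −0.82 in cKO and −0.35 in dcKO. Opposite-strand genes lie within the Klf13 locus, and the strand setting of the counting is not given in the sources used here.

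The other SIN3A-binding members passed no test. Klf10, induced by TGF-β, had 23.8, 24.6 and 28.9 CPM in Ctrl, 23.1, 23.9 and 23.5 in cKO, and 21.9, 28.1 and 24.7 in dcKO. It had log2 fold changes of −0.13 ± 0.20 and −0.05 ± 0.20, and its 95% interval in cKO, −0.57 to 0.30, held no 2-fold change in either direction. Klf9, a target of thyroid hormone and glucocorticoids that rises as neurons mature, had 4.32, 2.38 and 2.42 CPM in Ctrl, 3.47, 3.68 and 3.66 in cKO, and 3.69, 4.24 and 4.06 in dcKO. The controls of Klf9 spanned both mutant groups, and its log2 fold changes were 0.24 ± 0.33 and 0.39 ± 0.33. Without Ctrl replicate 1, the control with the highest level, they were 0.58 and 0.73.

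Klf15, a glucocorticoid-induced regulator of amino acid and glucose metabolism, was the lowest and most variable member. It had 67, 19 and 21 reads in Ctrl, 66, 53 and 48 in cKO, and 48, 15 and 102 in dcKO. The dcKO group held both the lowest and the highest embryo of the series. Its log2 fold changes were 0.48 ± 0.76 in cKO and 0.40 ± 0.76 in dcKO. The value in cKO was 1.28 without Ctrl replicate 1 and 0.16 without Ctrl replicate 3. In dcKO it ran from −0.81 to 1.20 by edgeR or DESeq2 with single embryos left out, so the direction there was not stable. The 95% interval in cKO ran from −1.21 to 2.17, which included a rise as large as that of Klf8.

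**Figure D2:**
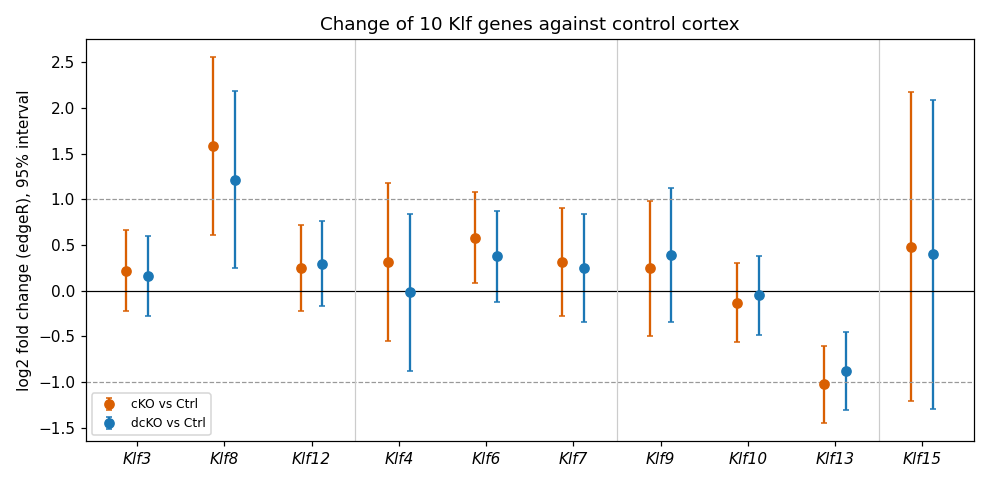
Log2 fold change of each Klf gene against the 3 Ctrl embryos, in cKO (orange) and dcKO (blue), estimated by edgeR from 3 embryos per group. Points are estimates, bars are 95% intervals, dashed lines mark 2-fold changes and grey lines separate the CtBP-binding, acetyltransferase-binding, SIN3A-binding and ungrouped members. Klf8 at 1.59 and 1.22 and Klf13 at −1.03 and −0.88 lie farthest from 0.

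Counted over the family in cKO, edgeR called 0 of 10 members in either direction, where it called 0.0146% of all tested genes higher and 0% lower. The deleted gene Cnot3, at −2.78 ± 0.53 (adjusted p = 0.0509 by edgeR), was not called either. The absence of calls is therefore no result about the members. At an unadjusted p under 0.05, edgeR put 2 members higher (Klf6 and Klf8) and 1 lower (Klf13), beside 15.3% and 11.7% of all tested genes. DESeq2 called Klf8 higher and Klf13 lower, beside 4.94% and 3.87% of all genes. Embryos did not overlap for Klf6 and Klf8 (higher) and Klf13 (lower), which all genes did in 29.2% and 28% of cases. Of the 10 log2 fold changes, 8 were above 0, beside 50.7% of all genes, and their median was 0.28 beside 0.01 over all genes tested. When only these 6 embryos were fitted, edgeR called Klf8 higher and Klf13 lower, beside 6.91% and 5.94% of genes, and without dcKO replicate 2 it did so beside 5.72% and 2.74%. With limma voom and quality weights Klf8 was called higher (7% of genes), whereas Klf13 at −0.997 fell just short of 2-fold (6.66% called lower). Apart from Klf8 and Klf13, the members' estimates lay between −0.13 and 0.58.

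In dcKO, compared with the same 3 controls, edgeR again called 0 of 10 members in either direction, and it called 0% of all tested genes higher and 0% lower. Klf8 was higher and Klf13 lower at an unadjusted p under 0.05, beside 18% and 11.2% of all genes. DESeq2 called Klf8 alone, beside 4.66% of genes called higher and 3.79% lower. Embryos did not overlap for Klf6 (higher, 15.6% of all genes) and Klf13 (lower, 11.2%). The members' median log2 fold change was 0.28, with 7 above 0. All genes stood at a median of 0.11 here, and 56.9% of them were above 0. Without dcKO replicate 2 the members' median was 0.16 with 6 above 0, beside 0.03 and 52.0% of all genes. With a correction for GC content the members' median in dcKO was −0.050 with 4 above 0, beside 0.011 and 51.1% of all genes. In cKO it was 0.068 with 7 above 0, beside −0.046 and 46.5%. Without dcKO replicate 2, edgeR called 1 member higher (Klf8), beside 7.23% of all genes, and none lower, beside 2.58%, since Klf13 at −0.98 (adjusted p = 0.0116) fell under 2-fold. In the same fit Klf3 and Klf7 were at −0.02 and −0.01, Klf4 at 0.22, Klf6 at 0.25, Klf9 at 0.34, Klf10 at −0.15, Klf12 at 0.09 and Klf15 at 0.89. With limma voom and quality weights on all 9 embryos, Klf8 was called higher and Klf13 lower, beside 10.9% and 15.9% of genes.

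The difference between dcKO and cKO was tested directly. No member passed, either by edgeR or by DESeq2, or at an unadjusted edgeR p under 0.05. Of all genes, edgeR called 0% higher and 0.0146% lower, DESeq2 0.0292% and 0.351%, and the unadjusted threshold was passed by 2.05% and 2.38%. The log2 difference of Klf8 was −0.37 ± 0.42 (95% interval −1.31 to 0.57), and without dcKO replicate 2 it was 0.01. For Klf13 it was 0.15 ± 0.19 (95% interval −0.27 to 0.57). The members' median was −0.06 with 4 above 0, beside a median of 0.07 and 58.6% of all genes, and it ran from −0.17 without cKO replicate 3 to 0.08 without dcKO replicate 3. Embryos did not overlap for Klf9 alone, which was higher in dcKO by 0.15 ± 0.33, beside 2.62% of all genes that were higher without overlap and 3.63% that were lower. This separation was lost when the libraries were scaled by relative log expression (RLE) or by their totals.

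Other tissue in the dissection also varied between groups. In bulk tissue, fewer cells of a type cannot be told apart from less RNA per cell. Summed markers of meningeal fibroblasts (6 genes) were 780 to 858 CPM in Ctrl, 452 to 694 in cKO and 324 to 518 in dcKO. The embryos with lower sums are all 6 mutants, so any gene lower in both mutant groups, Klf13 among them, falls together with these markers. Of the 6 markers, 3 were lower without overlap in cKO and 3 in dcKO, beside 28% and 11.2% of all tested genes. Summed endothelial markers (7 genes) were 218 to 293 CPM in Ctrl, 213 to 302 in cKO and 143 to 156 in dcKO. Microglia markers (6 genes) summed to 29.8 to 38.5, 32.8 to 66.1 and 12.9 to 27.2 CPM, and red blood cell markers (7 genes) to 6473 to 9217, 8015 to 12195 and 4288 to 5865 CPM. Neuron markers (6 genes) summed to 979 to 1380 CPM in Ctrl, 660 to 1065 in cKO and 473 to 1100 in dcKO. Every listed marker of these types had reads in the table, and their part in the Klf values was not tested.

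The rise of Klf8 was then set against each other member within the same embryo, a ratio that does not depend on library scaling. In cKO the log2 ratio of Klf8 to the other gene exceeded that of all controls for 8 of 9 members. This was also so for 90.8% of all tested genes, and since Klf8 was taken up for its rise the ratios are a description, with no test. The mean ratio rose by 1.38 relative to Klf3, 1.36 to Klf12, 1.30 to Klf4, 1.05 to Klf6, 1.32 to Klf7, 1.30 to Klf9, 1.73 to Klf10 and 2.64 to Klf13. Relative to Klf15 the gain was 0.90 and the embryos overlapped. In dcKO the ratio to Klf13 alone exceeded all controls, by 1.94, beside 28% of all tested genes, and for the other 8 members the mean gain lay between 0.60 and 1.10 with overlapping embryos. For 7 of those 8 the overlap came from dcKO replicate 2 alone, and for Klf15 it came from dcKO replicate 3 alone.

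**Figure D3:**
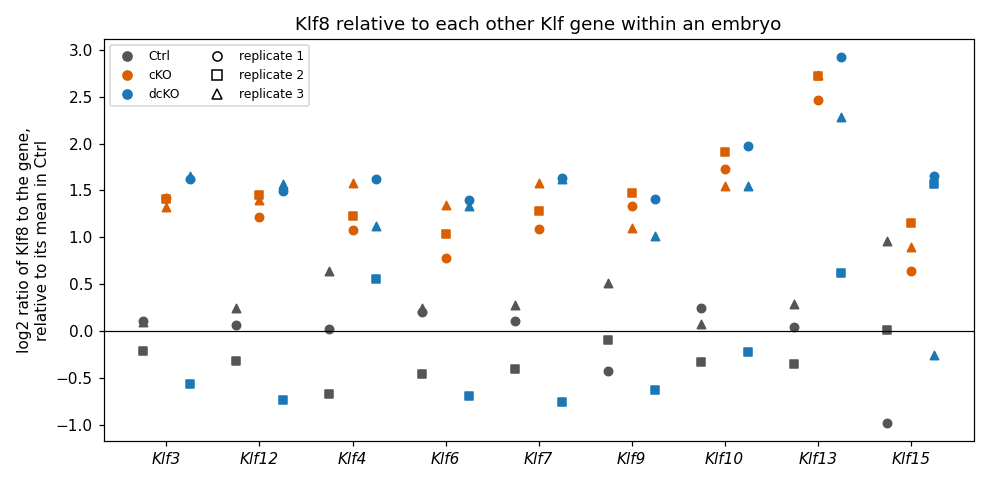
Log2 ratio of Klf8 to each of the other 9 Klf genes within an embryo, relative to the mean ratio in Ctrl. Points are embryos (grey Ctrl, orange cKO, blue dcKO, with the marker giving the replicate). The cKO embryos lie above every control for all genes but Klf15, and dcKO replicate 2 (blue square) lies below 0 for Klf3, Klf12, Klf6, Klf7, Klf9 and Klf10.

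Sample codes in the labels carry a number that some embryos of different groups share, without a statement of what the number marks. In the 2 pairs of a Ctrl and a cKO embryo with 1 number, Klf8 was higher in the mutant by 1.67 and 1.81 on the log2 scale, and Klf13 differed by −1.002 and −1.27. In the only such pair of Ctrl and dcKO, Klf8 was higher by 1.25 and Klf13 differed by −0.74. Klf6 differed by 0.83 and 0.0088 in the cKO pairs and by 0.16 in the dcKO pair. For Klf8 and Klf13 these mutant embryos lay outside the whole control range, so any pairing with the controls would give the same directions. Klf6 hardly moved in 1 of the 3 pairs.

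The members also differed in codon content. The study took up Klf8 in part for its low share of optimal codons, those whose use correlates with longer mRNA half-lives. The share of codons that end in G or C, given here, is another measure. It was 51.8% in Klf8, the lowest of the 10 and in the 26.9th percentile of 12102 tested genes with a coding sequence. In Klf13 it was 83.7%, the highest and in the 99.0th percentile of these genes. The median of these genes was 60.4%. Klf12, Klf10 and Klf6 were close to Klf8 at 52.2%, 53.4% and 53.8%, and Klf3 (62.2%), Klf15 (65.5%), Klf7 (66.1%), Klf9 (71.3%) and Klf4 (71.6%) lay between. Low GC at this position was thus shared by 4 members with log2 fold changes in cKO of 1.59, 0.25, −0.13 and 0.58.

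The stretches below show codon position 3 in the 3 members whose cKO embryos did not overlap the controls. Each covers the same 20 codons from the linker after the first of the last 3 zinc fingers, with that position in capitals.
Klf8: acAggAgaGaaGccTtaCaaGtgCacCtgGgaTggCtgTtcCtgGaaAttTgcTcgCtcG
Klf6: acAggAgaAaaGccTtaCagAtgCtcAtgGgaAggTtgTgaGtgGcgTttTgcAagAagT
Klf13: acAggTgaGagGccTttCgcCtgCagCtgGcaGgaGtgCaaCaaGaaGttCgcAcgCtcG

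In this stretch, 12 of 20 codons ended in G or C in Klf8, 6 in Klf6 and 16 in Klf13. The low share of the whole Klf8 gene was not seen here, where Klf6, Klf7 and Klf10 lay below Klf8 and the other 6 members above it. Klf7 and Klf10 had 11 such codons, Klf3, Klf9 and Klf12 had 13, Klf4 had 14 and Klf15 had 15. Klf8 and Klf13 coded for the same residue at 12 of the 20 positions, and at 5 of those 12 they used different codons. Klf8 and Klf6 shared 15 residues and used different codons at 5 of them. The Klf8 stretch begins in exon 6 of 7 and ends in exon 7 (chrX:153385510-153392742, plus strand, intron included). Those of Klf6 (chr13:5865341-5866694, plus strand) and Klf13 (chr7:63891742-63937970, minus strand) likewise span an exon junction, from exon 2 to 3 of 4 and from exon 1 to 2 of 2.

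**Figure D4:**
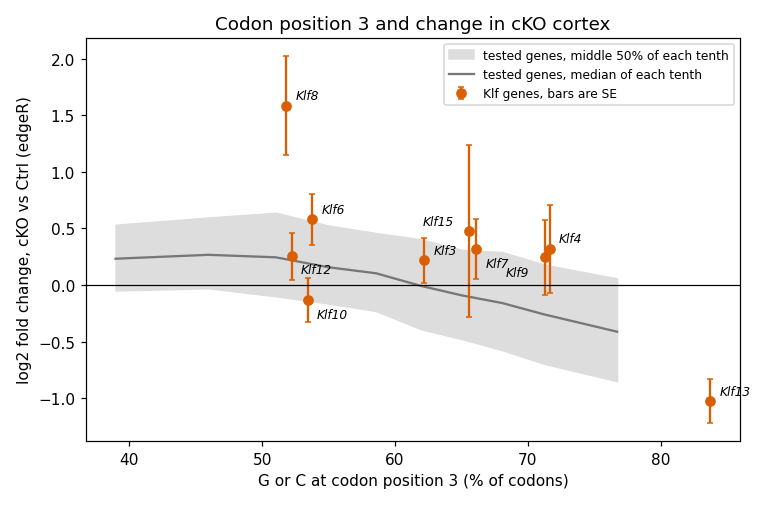
Log2 fold change in cKO against Ctrl (edgeR) of the 10 Klf genes plotted over the percentage of their codons that end in G or C. Orange points are Klf genes with SE bars, the grey line joins medians of tested genes in 10 equal bins of codon content and the band holds the middle 50% of each bin. Tested genes fell from a median of 0.23 in the lowest bin to −0.41 in the highest, Klf8 lies far above its bin, and Klf13 lies below and to the right.

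Across genes, which are not independent replicates, the Pearson correlation of this percentage with the cKO log2 fold change was −0.30 over 12102 tested genes and −0.65 over the 10 members. Without Klf8 and Klf13 it was 0.18 over the other 8, so among the members the relation rested on these genes. In the tested genes around the codon content of Klf8, the median log2 fold change was 0.24, against 1.59 for Klf8 itself. Library preparation can also act on GC content, and its part was not tested.

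Counts of 2 motifs in the 3′ untranslated regions did not set Klf8 apart from its family. The AU-rich pentamer ATTTA occurred on the transcribed strand in all 10 members, from 1 copy in Klf4 to 18 in Klf7 with 5 in Klf8, and in 66.9% of tested genes. The Pumilio recognition letters TGTANATA occurred in 7 members, with 2 copies in Klf8 and 1 in Klf13, and in 25.4% of tested genes. Of the 10 members, 8 had a 3′ untranslated region longer than the median of tested genes, 1016 bases. Among all tested genes above that median, 90.6% held ATTTA and 39.6% held TGTANATA, beside 6 of these 8 members for TGTANATA.

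The genes whose log2 CPM over the 9 embryos was most like that of Klf8 were Gnb4 (Pearson r = 0.992), Tmem237 (0.990), Gstz1 (0.989), Trp53bp1 (0.988) and Asrgl1 (0.985), among 13679 genes. No member was near the top of this order. Klf15 came first of them at rank 2845 (r = 0.60), then Klf4 (0.54), Klf6 (0.45), Klf9 (0.37), Klf3 (0.13), Klf12 (0.10) and Klf7 (0.04). Klf10 (−0.63) and Klf13 (−0.81, rank 12792) ran opposite to Klf8. The 9 points share 3 genotypes and their libraries, and Klf8 itself chose the order, so no test was made.

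Of 8 further Klf genes, 4 passed the read filter, and none was called by edgeR or DESeq2 in any comparison. Klf16, a ubiquitous SIN3A-binding factor, had log2 fold changes of −0.61 ± 0.23 in cKO (unadjusted p = 0.0261) and −0.67 ± 0.23 in dcKO (unadjusted p = 0.0158) by edgeR, with all embryos below the controls. Of all tested genes, 28% in cKO and 11.2% in dcKO were lower without overlap. At an unadjusted p under 0.05, 11.7% and 11.2% were lower. With a correction for GC content the values of Klf16 were 0.04 and 0.34, so its direction depended on that correction. Since the correction also takes out GC-linked changes of the genotype, the source of this difference was not tested. Klf2, the endothelial shear-stress factor, was at −0.65 ± 0.60 and −1.32 ± 0.61, with embryos that overlapped the controls in both. It had 4.12, 3.27 and 2.20 CPM in Ctrl and 1.19, 0.31 and 2.40 in dcKO, where replicate 2 was lowest with 12 reads. Klf1 of red blood cells was at 0.59 ± 0.41 and 0.02 ± 0.41, and Klf11 at −0.04 ± 0.23 and −0.28 ± 0.23.

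The related Sp factors bind the same GC-rich elements, and 6 of 9 were tested. Sp8, a cortical patterning factor, was the only one called, lower in cKO by DESeq2 (log2 fold change −1.54, adjusted p = 0.0284) and not by edgeR (−1.53 ± 0.54, adjusted p = 0.109). It had 28.2 to 32.3 CPM in Ctrl, 6.33 to 13.5 in cKO, and 7.66, 35.7 and 9.81 in dcKO, where replicate 2 lay above the controls and the others below them. In dcKO its log2 fold change was −0.74 ± 0.53 by edgeR. Without dcKO replicate 2, edgeR called it lower in dcKO (−1.77, adjusted p = 0.0100) and in cKO (−1.53, adjusted p = 0.0107). Sp2 was at −1.06 ± 0.53 and −1.20 ± 0.54, Sp5 at −1.10 ± 0.61 and −0.36 ± 0.60, and Sp4 at −0.36 ± 0.32 and 0.06 ± 0.32. The ubiquitous Sp1 was at 0.07 ± 0.24 and 0.32 ± 0.24, and Sp3 at 0.06 ± 0.28 and 0.47 ± 0.28. On all 9 embryos edgeR called none, and at an unadjusted p under 0.05 it put Sp8 lower in cKO and Sp2 lower in dcKO. Of all tested genes, edgeR called 0% lower in either comparison. The unadjusted threshold was passed by 11.7% (lower) in cKO and 11.2% in dcKO, and DESeq2 called 3.87% lower in cKO. Without dcKO replicate 2, edgeR called 2.74% lower in cKO and 2.58% in dcKO.

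All 9 cofactors on which KLF proteins rely were tested. Ctbp1, the corepressor of the KLF8 group, was called lower by DESeq2 in cKO (log2 fold change −1.41, adjusted p = 0.00205) and in dcKO (−1.05, adjusted p = 0.0240). By edgeR it was −1.40 ± 0.33 (adjusted p = 0.0521) and −1.02 ± 0.33 (adjusted p = 0.0841). Kat2b, an acetyltransferase, was called higher by DESeq2 in dcKO (1.03, adjusted p = 0.00199), and edgeR put it at 0.66 ± 0.24 in cKO and 1.05 ± 0.24 in dcKO (adjusted p = 0.0510). No other cofactor was called by either tool. At an unadjusted p under 0.05, edgeR put Crebbp, Ctbp1 and Ctbp2 lower and Kat2b higher in cKO, and Ctbp1 and Ctbp2 lower and Kat2b and Sin3a higher in dcKO. That threshold was passed by 15.3% of all tested genes (higher) and 11.7% (lower) in cKO and by 18% and 11.2% in dcKO, and DESeq2 called 3.87% lower in cKO and 4.66% higher and 3.79% lower in dcKO.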

How the data were processed

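Cortices of 9 single E12.5 embryos (3 Ctrl, 3 Cnot3 cKO, 3 Cnot3;Trp53 dcKO) were profiled by stranded poly(A) RNA-seq with paired-end reads. The authors trimmed adapters with cutadapt, used STAR for alignment to the mm39 build and featureCounts for the number of reads per gene, and they deposited these raw counts with no normalization. The table held 57010 genes, 30138 of them with no read, and every column was mapped to 1 embryo.

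A gene was tested if each embryo had more than 10 reads of it (13680 genes). Testing was by quasi-likelihood in edgeR 4.0.16 (R 4.3.3), with TMM factors and 1 model of all 9 embryos. Calls required a Benjamini-Hochberg adjusted p under 0.05 over all tested genes and more than a 2-fold change. The alternatives were DESeq2 1.42.0 (the study's tool), limma 3.58.1 voom with quality weights, RLE factors, other filters, 6-embryo fits, blocks for replicate number and Xist, a GC correction and leaving out each embryo. Log2 CPM used a prior count of 0.5. Exact permutation tests compared single values over 3 embryos a group. The scripts were tested on simulated data. GENCODE M21 supplied positions and coding sequences, on GRCm38 and not the authors' build, using for each gene the isoform with the longest coding sequence.

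Every one of the 10 members was named, with Cnot3 and Trp53 as checks. Other Klf and Sp genes that passed the filter were named, as were genes of 4 further lists (cofactors, described targets, glucocorticoid-induced and early-response genes) if called or at an extreme in cKO, and the 5 genes most like Klf8. The members and lists were chosen with earlier results of these data known.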

Additional observations from a re-analysis of the deposited data

How the results depend on the processing

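Klf8 and Klf13 kept their directions against Ctrl in all 29 alternative settings. Klf8 in cKO passed the threshold with DESeq2 (1.57), limma voom (1.70), no read filter (1.52), only the 6 embryos compared (1.58) and DESeq2 with a replicate block (1.65), and in dcKO with DESeq2 (1.19) and limma voom (1.68). The count of members called higher in cKO was thus 1 in place of 0 under all 5 of these settings, and that called lower was 1 under all but limma voom. Of all genes, 1.44% were called higher and 1.59% lower with no read filter, and 4.18% and 3.3% by DESeq2 with a replicate block. In dcKO the count called higher was 1 with DESeq2 and limma voom, and that called lower was 1 with limma voom. By unscaled totals, 4 members did not overlap in cKO and 2 in dcKO (higher), beside 39.5% and 17.3% of all genes. By RLE factors 2 were lower in cKO, beside 28.7%, and by both 0 were higher in dcKO than in cKO, beside 1.54% and 2.14%. edgeR called Klf8 and Klf13 in cKO when any 1 dcKO embryo was left out (beside 3.79% to 5.72% of genes called higher and 2.74% to 5.46% lower) and with none of the other embryos left out.

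The GC correction reversed Klf3 in cKO (−0.0047) and, in dcKO, Klf3 (−0.16), Klf4 (0.33), Klf6 (−0.063), Klf7 (−0.096) and Klf12 (−0.037), and Klf12 between dcKO and cKO (−0.058). With a replicate block and the GC correction these were −0.016, −0.17, 0.33, −0.053, −0.11, −0.044 and −0.055. The replicate block alone reversed Klf4 in dcKO (0.0033), and with it edgeR still called no member. DESeq2 with the replicate block did not call Klf8 in dcKO (1.11, adjusted p = 0.0794). Embryos with the same replicate number did not deviate together (mean r = −0.17 over 9 pairs, beside 0.08 over 18 pairs of different replicate numbers). The replicate number was therefore not treated as a pairing. The number that embryos share in their sample codes is another label, and it was neither checked in this way nor used as a block. A block for Xist reads put Klf15 in dcKO at −0.053, and limma voom put Klf10, Klf12 and Klf13 between dcKO and cKO at −0.052, −0.0066 and −0.10. The cause was not tested.

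With each embryo left out in turn, by edgeR or DESeq2, Klf8 ranged from 1.40 to 1.71 in cKO, from 0.84 to 1.60 in dcKO and from −0.74 to 0.015 between dcKO and cKO. In cKO the others ranged from 0.11 to 0.29 (Klf3), 0.13 to 0.50 (Klf4), 0.45 to 0.77 (Klf6), 0.19 to 0.50 (Klf7), 0.080 to 0.58 (Klf9), −0.20 to −0.042 (Klf10), 0.19 to 0.34 (Klf12), −1.11 to −0.91 (Klf13) and 0.15 to 1.28 (Klf15). Counts of members called ranged from 0 to 1 in each direction against Ctrl. In dcKO, ranges that crossed 0 were −0.055 to 0.30 (Klf3), −0.26 to 0.22 (Klf4), −0.044 to 0.41 (Klf7), −0.19 to 0.039 (Klf10) and −0.81 to 1.20 (Klf15). Between dcKO and cKO they were −0.26 to 0.086 (Klf3), −0.35 to 0.10 (Klf7), −0.044 to 0.17 (Klf10), −0.19 to 0.21 (Klf12), −0.017 to 0.28 (Klf13) and −1.27 to 0.41 (Klf15). Low counts limit Klf4, Klf9 and Klf15, with 15 to 166 reads per embryo.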

Other observations

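Of 9 genes described as targets of KLF factors, 5 passed the read filter, and DESeq2 called 1 higher and 1 lower in cKO, beside 4.94% and 3.87% of all tested genes. Cdkn1a, the p21 cell cycle inhibitor, was called higher in cKO by DESeq2 (log2 fold change 2.45, adjusted p = 2.49e-07) and lower in dcKO than in cKO (−2.27, adjusted p = 1.05e-05), with 0.21 ± 0.37 in dcKO against Ctrl by edgeR. Ccnd1, the cyclin D1 gene, was called lower in cKO by DESeq2 (−1.21, adjusted p = 0.0216) and was at −0.75 ± 0.37 in dcKO by edgeR. By edgeR's adjusted p none of the list was called in any comparison. At an unadjusted p under 0.05 edgeR put Cdkn1a higher and Ccnd1 lower in cKO, Cdkn1b higher in dcKO, and Cdkn1b higher and Cdkn1a lower in dcKO than in cKO. Over all tested genes this threshold was passed by 15.3% (higher) and 11.7% (lower) in cKO, 18% and 11.2% in dcKO, and 2.05% and 2.38% between dcKO and cKO.

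Glucocorticoid-induced genes, known with Klf9 and Klf15, were tested in 5 of 5 cases, and none was called by either tool. In cKO they ran from −0.47 ± 0.54 (Zbtb16) to 0.14 ± 0.28 (Sgk1). At an unadjusted p under 0.05 edgeR put Fkbp5 lower in cKO and dcKO, and Tsc22d3 higher in dcKO than in Ctrl and in cKO. Of 9 early-response genes, 5 were tested. Ier2 was lowest in cKO and was called lower by DESeq2 (−2.09, adjusted p = 0.0133) but not by edgeR (−2.07 ± 0.69, adjusted p = 0.0971). Atf3 was highest at 1.34 ± 0.53 (adjusted p = 0.140 by edgeR). At an unadjusted p under 0.05 edgeR put Ier2 lower and Atf3 higher in cKO, and Egr1 lower in dcKO than in Ctrl and in cKO. Over all tested genes that threshold was passed by 15.3% (higher) and 11.7% (lower) in cKO and by 18% and 11.2% in dcKO. Between dcKO and cKO it was passed by 2.05% and 2.38%, and DESeq2 called 3.87% lower in cKO.

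Klf14, which is not among the 10 genes and failed the read filter, was singled out after its values were seen. It had 3, 1 and 0 reads in Ctrl, 1, 5 and 2 in cKO, and 28, 26 and 21 in dcKO. Every dcKO embryo, replicate 2 included, was above all 6 others.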
